A study of Mus musculus with 6 samples.

Results

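Transcripts of 40 genes of the lysosome and of autophagy were examined in mouse liver after 71 weeks on chow containing polyethylene microplastic (PE-MP), against 71 weeks on normal chow. The genes were taken by symbol from a count table of 56674 gene rows, and each of the 40 stood on exactly 1 row. They fall into 18 hydrolases and other luminal proteins, 12 lysosomal membrane proteins and proton pump subunits, and 10 autophagy genes including the transcription factors Tfeb and Tfe3. All animals were male C57BL/6 mice with no genetic modification named, kept at 18 to 22 degrees Celsius, and chow was the only factor that differed by the labels. RNA of whole liver was poly(A)-selected and sequenced in 3 libraries from PE-MP chow and 3 from normal chow. The labels give no PE-MP dose, particle size, cage or batch, and leave unsaid whether the libraries are from separate animals, so the spread on which the p-values rest could be technical.

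Lysosomes are acidified by a proton pump, the vacuolar ATPase, and degrade what reaches them by endocytosis, phagocytosis and autophagy. Hydrolases in the lumen cut proteins, lipids and glycans, and membrane proteins shield the wall, move products out and release calcium. In autophagy, cytosol or organelles are enclosed by a membrane that carries lipidated LC3 and GABARAP proteins and then fuses with the lysosome. Tfeb and Tfe3 are related transcription factors that bind a palindromic E-box in the promoters of many lysosomal genes when nutrients are scarce or lysosomes are stressed. In the liver, hepatocytes use the pathway in fasting and lipid turnover, and Kupffer cells, the resident macrophages, use it to digest engulfed particles.

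The promoters of 3 members that carry that E-box in the 120 bases before the transcription start are shown as examples. RefSeq promoter windows (build GRCm38.p6, 250 bases before to 50 after each start) were matched for 33 of the 40 members. Npc1, Becn1, Map1lc3a, Ctsb, Asah1, Ctsh and Atp6v1h were the others. The 6-letter E-box CACGTG and the 8-letter form TCACGTGA, which contains it, were searched. Each reads the same on both strands. The stretches below are the 120 bases before the start, 5′ to 3′ on the gene's strand, at chr7:142387828-142387947 (minus strand) for Ctsd, chr8:13159041-13159160 (plus strand) for Lamp1 and chr8:3500399-3500518 (plus strand) for Mcoln1. Capitals mark the E-box, in its 8-letter form where the flanking letters match.
Ctsd: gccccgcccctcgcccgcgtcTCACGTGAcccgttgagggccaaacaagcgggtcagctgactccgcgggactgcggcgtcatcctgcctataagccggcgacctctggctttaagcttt
Lamp1: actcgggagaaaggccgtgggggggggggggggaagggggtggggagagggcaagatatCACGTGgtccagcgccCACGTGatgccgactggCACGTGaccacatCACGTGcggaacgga
Mcoln1: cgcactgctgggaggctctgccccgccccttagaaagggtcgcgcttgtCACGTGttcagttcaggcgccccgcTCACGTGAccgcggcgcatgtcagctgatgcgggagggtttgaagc
Counting back from -1 at the base before the start, the E-box began at -61, -45, -28 and -15 in Lamp1. The 8-letter form began at -99 in Ctsd and at -46 in Mcoln1, and Mcoln1 held a further 6-letter E-box at -71. Some members not shown carried an E-box nearer the start, such as Atp6v0d1 at -3 and Atg5 at -14. CACGTG stood in the windows of 9 of the 33 matched members (27.3%), against 8.09% of the 27025 genes in the RefSeq table. TCACGTGA stood in 6 of 33 (18.2%; Ctsa, Ctsd, Gla, Mcoln1, Atp6v0d1 and Atp6v1a), against 1.12% of all genes. No test of the chow difference by motif was made. The median log2 fold change, PE-MP chow over normal chow, was -0.19 for the 6 members with the 8-letter form and -0.25 for the 24 matched members with neither. Of these printed promoters, those of Ctsd and Lamp1 belong to genes with lower levels under PE-MP chow, and that of Mcoln1 to a gene with a higher level. All 3 genes had an unadjusted p under 0.05 by edgeR, so they do not stand for the other members.

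The libraries held 75176645 to 91898953 counts under PE-MP chow and 68357478 to 112566641 under normal chow, and a member had between 249 and 75188 counts in a library. Transcripts of 12 hepatocyte markers were abundant in all libraries, with sums of 81668 to 90390 CPM under PE-MP chow and 73340 to 91615 CPM under normal chow, where CPM is the count scaled per 1000000 reads of the adjusted library size. The 13 mitochondrially encoded mRNAs took 8.63% to 9.19% of the counts under PE-MP chow and 14.2% to 15.1% under normal chow. A list of RNAs that stay in the nucleus took 0.0504% to 0.0772% under PE-MP chow and 0.0161% to 0.0447% under normal chow. The TMM factors that adjust the library sizes also split by chow. They were 1.07, 1.09 and 1.17 for PE-MP libraries 1 to 3 and 0.923, 0.879 and 0.900 for normal chow libraries 1 to 3. Levels in CPM and fold changes rest on this scaling and are relative to it. Normal chow library 2 stood apart: the ribosomal RNA gene Rn18s-rs5 took 0.334% to 5.98% of the PE-MP libraries, and 11.2% of normal chow library 2 against 1.15% and 2.92% of the other normal chow libraries. Members took 0.668% to 0.686% of the counts under PE-MP chow, 0.559% in normal chow library 2, and 0.697% and 0.711% in normal chow libraries 1 and 3. Results are therefore given with and without that library. Since its member levels are the nearest to the PE-MP libraries in many cases, leaving it out widens the gap between chows by construction, and the larger differences without it are no separate support for them.

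Most members had lower mean levels under PE-MP chow, by small amounts, and no member passed the test. At an edgeR adjusted p of 0.05 over 18043 tested genes, 0 of 40 members were called, against 0.00554% of all genes, which is 1 gene. The lowest adjusted p of a member was 0.135, for Lipa. At an unadjusted p under 0.05, 2 members were higher (Ctsc and Mcoln1), a share of 5% against 9.10% of all genes, and 10 were lower, a share of 25% against 8.82% of all genes. The ranges of the chows did not overlap for 2 members that were higher (14.2% of all genes) and 11 that were lower (11.8% of all genes). The fitted fold change was below 0 for 33 of 40 members, with a median log2 fold change of -0.20, against 0.02 for all tested genes. In bulk liver, fewer cells of a type and less RNA per cell cannot be told apart.

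The data set narrow limits on most members. The whole 95% confidence interval of the log2 fold change lay within 1 unit of 0, a 2-fold change either way, for 36 of 40 members. The exceptions were Ctsd, Atp6v1h, Cd63 and Gabarapl1. Among all genes with an interval, 8976 of 18027 met the same limit.

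**Figure D1:**
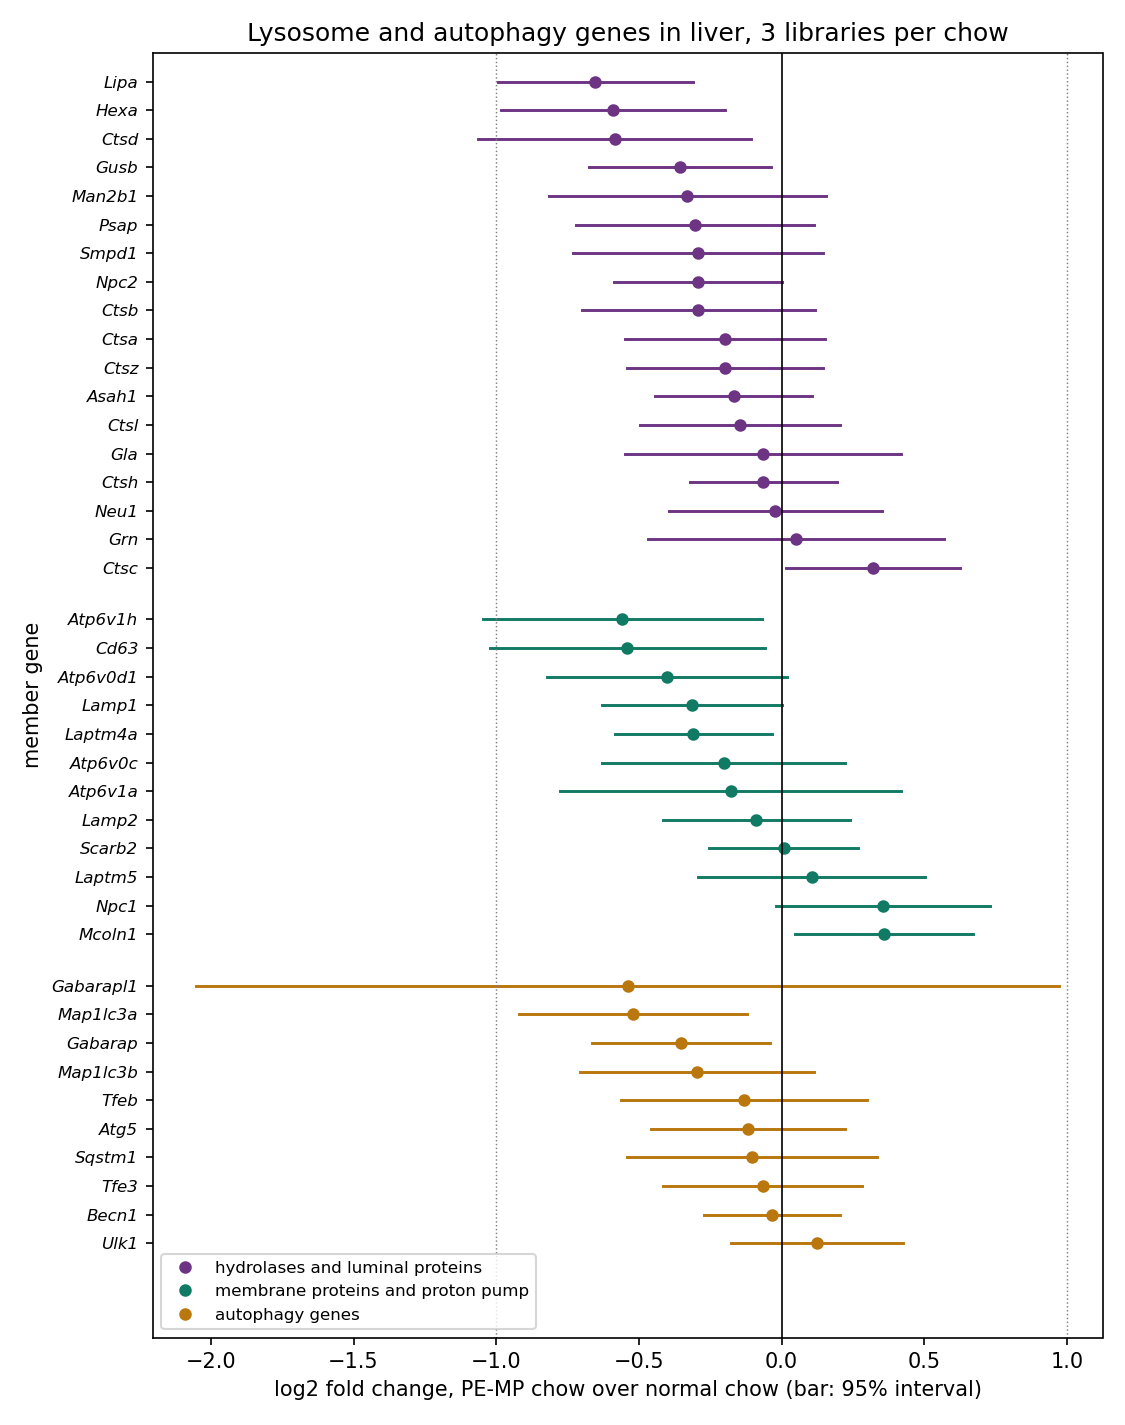
Log2 fold change, PE-MP chow over normal chow, for the 40 members grouped by role, with points for the edgeR estimate and bars for its 95% interval (3 libraries per chow). Points lie left of 0 for 33 members, and 36 bars lie within the dotted lines at -1 and 1.

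Among the hydrolases and luminal proteins, 16 of 18 had a negative fold change, with a median of -0.25 on the log2 scale. Where these 18 are given as a group below, they are called hydrolases for short. Summed over the 18 genes, levels were 3112, 3143 and 2906 CPM under PE-MP chow and 4062, 3045 and 4010 CPM under normal chow. The PE-MP libraries lay close together and normal chow library 2 lay among them. Means were 3054 ± 129 CPM under PE-MP chow and 3706 ± 573 CPM under normal chow (SD, n = 3 each), a ratio of 0.824, or 0.757 without normal chow library 2. At an unadjusted p under 0.05, 4 were lower (Lipa, Hexa, Ctsd and Gusb) and 1 was higher (Ctsc).

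Lipa encodes lysosomal acid lipase, which splits cholesteryl esters and triglycerides delivered to the lysosome. Its level was 195, 196 and 192 CPM in the PE-MP libraries, against 356, 257 and 305 CPM in the normal chow libraries. All PE-MP libraries lay below all normal chow libraries, and the PE-MP values spanned a ratio of 1.02 from highest to lowest. The log2 fold change was -0.65 ± 0.14 (SE; adjusted p = 0.135 by edgeR), with a 95% interval of -0.99 to -0.31. DESeq2 called Lipa lower (log2 fold change -0.66, adjusted p = 0.00354), as did edgeR without normal chow library 2 (-0.77, adjusted p = 0.0333). With any other single library left out, edgeR did not call it (lowest adjusted p 0.221).

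Hexa encodes the alpha subunit of beta-hexosaminidase, which trims GM2 ganglioside. It measured 54.0, 47.7 and 46.0 CPM under PE-MP chow and 81.2, 58.2 and 82.9 CPM under normal chow. There was no overlap between chows, with normal chow library 2 next to the PE-MP range. The log2 fold change was -0.59 ± 0.17 (SE; adjusted p = 0.172 by edgeR). It was -0.60 by DESeq2 (adjusted p = 0.0406) and -0.74 by edgeR without normal chow library 2 (adjusted p = 0.0352), against adjusted p of 0.300 or more without any other single library. Hexa and Lipa were the 2 members DESeq2 called on all 6 libraries, both lower, where DESeq2 called 3.48% of all genes lower.

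Ctsd, the main aspartic protease of the lysosome, measured 316, 301 and 293 CPM under PE-MP chow and 535, 322 and 508 CPM under normal chow. Normal chow library 2 lay just above the highest PE-MP library, and the other normal chow libraries were well above. The log2 fold change was -0.58 ± 0.20 (SE; adjusted p = 0.216 by edgeR), -0.79 without normal chow library 2 (adjusted p = 0.0333) and -0.46 without normal chow library 1 (adjusted p = 0.392). Ctsb, a cysteine protease that cuts within proteins and trims their ends, measured 458, 475 and 473 CPM under PE-MP chow and 623, 438 and 659 CPM under normal chow. Normal chow library 2 was the lowest of the 6 for Ctsb, so the chows overlapped. Its log2 fold change was -0.29 ± 0.17 (SE; adjusted p = 0.413 by edgeR), -0.46 without that library (adjusted p = 0.0478) and -0.18 without normal chow library 3 (adjusted p = 0.725).

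Gusb, the glucuronidase that removes glucuronic acid from glycosaminoglycans, measured 20.0, 22.4 and 18.9 CPM under PE-MP chow and 28.9, 23.6 and 25.9 CPM under normal chow. The chows did not overlap, and the log2 fold change was -0.36 ± 0.13 (SE; adjusted p = 0.240 by edgeR). Ctsc is dipeptidyl peptidase I, which activates the granule serine proteases of leukocytes. Its direction was the opposite, with 56.2, 49.8 and 45.8 CPM under PE-MP chow and 37.4, 44.4 and 39.9 CPM under normal chow. Again there was no overlap, although PE-MP library 3 and normal chow library 2 were close, and the log2 fold change was 0.32 ± 0.13 (SE; adjusted p = 0.260 by edgeR). After removal of a trend over genes in length and GC content it was 0.15. Grn encodes progranulin, a secreted and lysosomal protein that macrophages make in quantity. It measured 210, 186 and 152 CPM under PE-MP chow and 224, 133 and 172 CPM under normal chow. The ranges overlapped widely, and its log2 fold change of 0.05 ± 0.22 (SE; adjusted p = 0.923 by edgeR) turned to -0.12 without normal chow library 2.

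Of the other hydrolases and luminal proteins, 11 in number, none had an unadjusted p under 0.05. Npc2, the luminal sterol carrier that passes cholesterol to Npc1, had a log2 fold change of -0.29 ± 0.12 (SE) and no overlap between chows. Psap, the precursor of the saposins that help hydrolases reach lipids, was at -0.30. Man2b1, an alpha-mannosidase, was at -0.33, and Smpd1, acid sphingomyelinase, at -0.29. The remaining 7 lay between -0.20 and -0.02: Ctsa, a carboxypeptidase that also protects Neu1, the cysteine proteases Ctsz, Ctsl and Ctsh, Asah1 (acid ceramidase), Gla (alpha-galactosidase A) and Neu1 (a sialidase), which was at 0.01 with upper-quartile factors. Ctsz was at 0.02 once the length and GC trend was removed. Their 95% intervals all reached from below 0 to above 0.

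**Figure D2:**
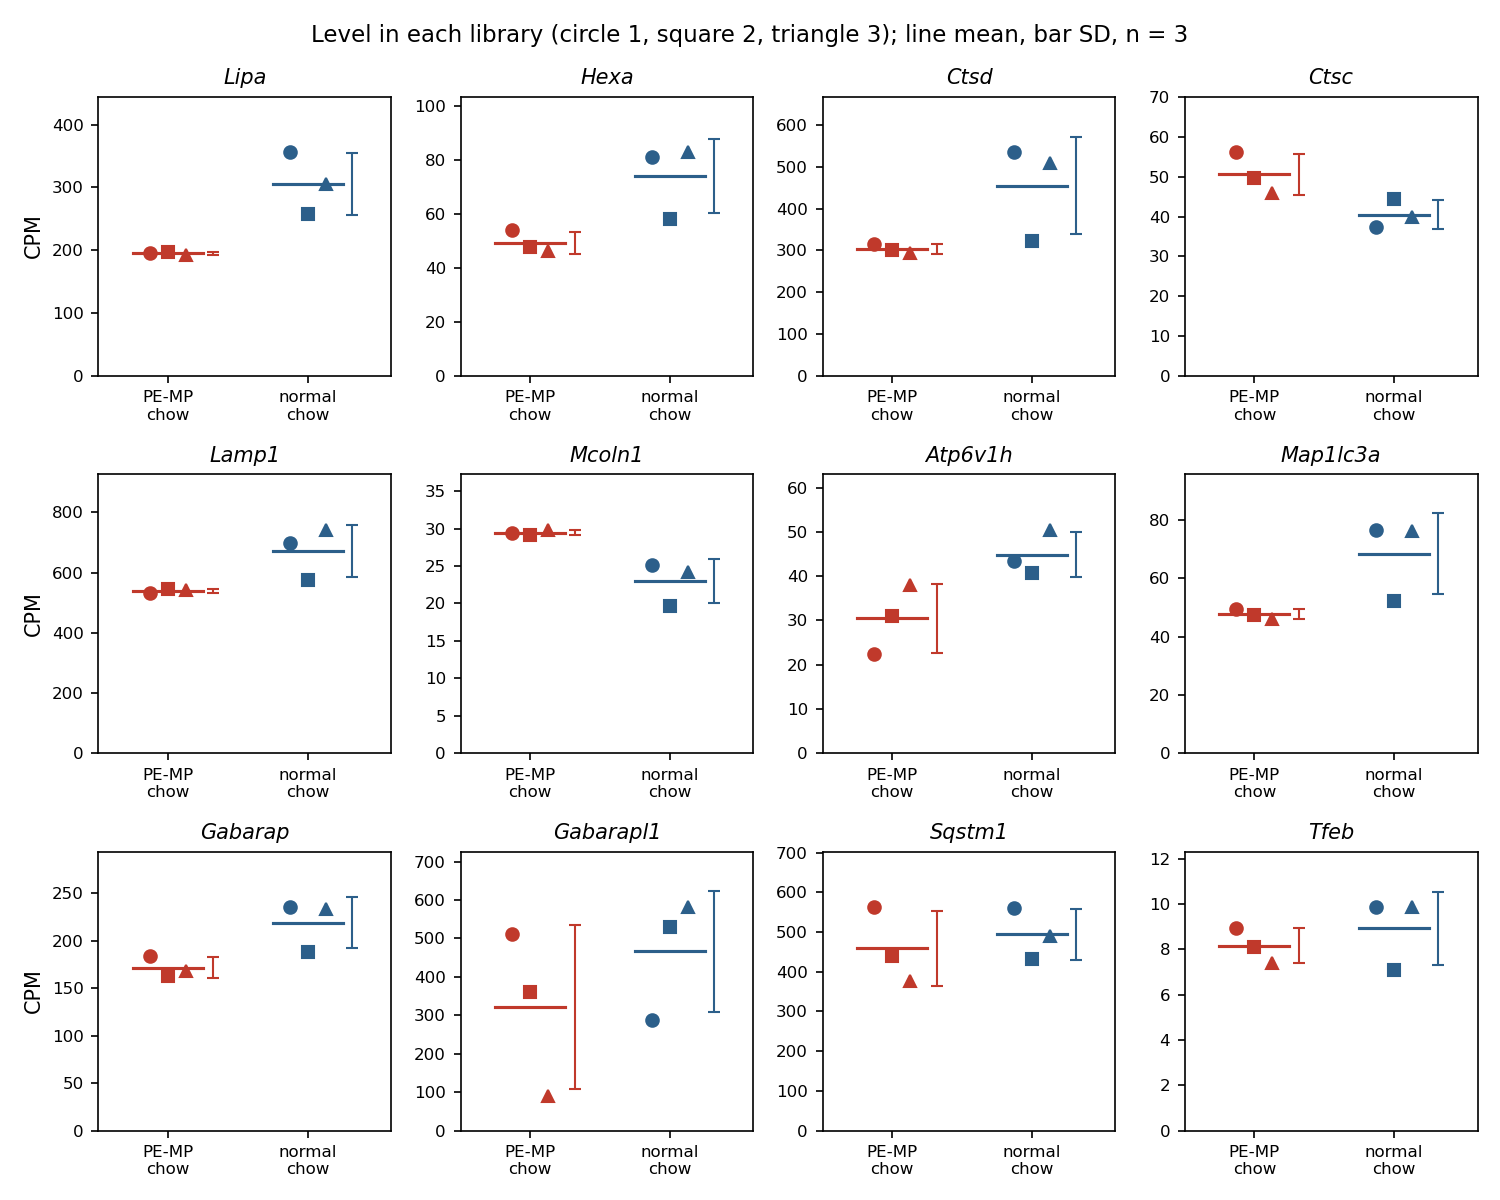
Level in CPM (vertical axis, from 0) of 12 members in each library, PE-MP chow left and normal chow right, with symbols for library numbers, lines for means and bars for the SD (n = 3). For Lipa the PE-MP libraries span 192 to 196 CPM and the normal chow libraries 257 to 356 CPM, and normal chow library 2 (square) is the normal chow library nearest the PE-MP libraries for Lipa, Hexa, Ctsd, Lamp1, Map1lc3a and Gabarap.

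The membrane proteins and pump subunits were split in direction. Of 12, 8 had a negative and 4 a positive fold change, with a median of -0.19 on the log2 scale. Their summed level was 1693, 1863 and 1834 CPM under PE-MP chow and 1996, 1835 and 2192 CPM under normal chow, with normal chow library 2 inside the PE-MP range. Without normal chow library 3 the median was -0.06. At an unadjusted p under 0.05, 4 were lower (Lamp1, Cd63, Laptm4a and Atp6v1h) and 1 was higher (Mcoln1).

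Lamp1 and Lamp2 are the heavily glycosylated proteins that line the inner face of the lysosomal membrane, and Lamp2 also serves chaperone-mediated autophagy. Lamp1 measured 531, 545 and 543 CPM under PE-MP chow and 698, 574 and 742 CPM under normal chow. The PE-MP libraries lay within a ratio of 1.03 of each other and below all normal chow libraries. Lamp1 had a log2 fold change of -0.32 ± 0.13 (SE; adjusted p = 0.279 by edgeR). Lamp2 measured 507, 604 and 561 CPM under PE-MP chow and 520, 600 and 657 CPM under normal chow, and the chows overlapped. Its log2 fold change was -0.09 ± 0.14 (SE; adjusted p = 0.768 by edgeR), with a 95% interval of -0.42 to 0.24. Per kilobase of exon, Lamp1 stood first among the members in level, at 202 CPM per kb under PE-MP chow and 251 CPM per kb under normal chow.

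Mcoln1, the calcium channel TRPML1 of the lysosomal membrane, was higher, with 29.4, 29.2 and 29.8 CPM under PE-MP chow and 25.1, 19.6 and 24.2 CPM under normal chow. The chows did not overlap, and the log2 fold change was 0.36 ± 0.13 (SE; adjusted p = 0.232 by edgeR). Without normal chow library 2, the lowest of the 6, it was 0.25. Npc1, the membrane protein that exports cholesterol from the lysosome, had a log2 fold change of 0.36 ± 0.16 (SE; adjusted p = 0.299 by edgeR), or 0.20 with the length and GC trend removed, and the chows overlapped. Npc1 and Npc2, which work in sequence, thus lay on opposite sides of 0.

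Laptm4a and Laptm5 are related multi-pass membrane proteins, the second of which is made mainly by blood cells and macrophages. Laptm4a measured 130, 144 and 138 CPM under PE-MP chow and 174, 154 and 182 CPM under normal chow, with no overlap and a log2 fold change of -0.31 ± 0.12 (SE; adjusted p = 0.238 by edgeR). Laptm5 measured 15.7, 12.4 and 11.3 CPM under PE-MP chow and 13.2, 12.2 and 11.2 CPM under normal chow. It overlapped, with a log2 fold change of 0.11 ± 0.17 (SE; adjusted p = 0.771 by edgeR). Cd63, a tetraspanin of late endosomes, was the member with the lowest level per kilobase, with 4.44, 3.04 and 4.01 CPM under PE-MP chow and 5.70, 6.11 and 4.92 CPM under normal chow. The chows did not overlap, and the log2 fold change was -0.54 ± 0.20 (SE; adjusted p = 0.240 by edgeR). Scarb2, the receptor that carries glucocerebrosidase to the lysosome, was at 0.01, and at -0.01 with RLE factors or DESeq2.

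All 4 proton pump subunits among the members had negative fold changes, 1 of them at an unadjusted p under 0.05. Atp6v1h, a regulatory subunit of the cytosolic sector, measured 22.5, 31.0 and 38.0 CPM under PE-MP chow and 43.3, 40.8 and 50.5 CPM under normal chow. No PE-MP library reached the normal chow range, the PE-MP libraries spanned a ratio of 1.69, and the log2 fold change was -0.56 ± 0.21 (SE; adjusted p = 0.234 by edgeR). It was -0.88 with the length and GC trend removed. Atp6v0d1 of the membrane sector was at -0.40 ± 0.18, and Atp6v0c, which forms the proton-carrying ring, at -0.20 ± 0.18 (SE). Atp6v1a, the catalytic subunit, was at -0.18 ± 0.25 (SE), and was at 0.03 without normal chow library 3. The pump has further subunits outside the members, and their fold changes varied. With all libraries, Atp6v0e and Atp6v1f were at -0.42 and -0.40, while Atp6v1d, Atp6v0a1 and Atp6v1c1 were at -0.03, -0.02 and 0.05. The values of the members therefore do not stand for the whole pump.

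Of the 10 autophagy genes, 9 had a negative fold change, with a median of -0.13 on the log2 scale. At an unadjusted p under 0.05, 2 were lower (Map1lc3a and Gabarap) and 0 were higher. Both encode small ubiquitin-like proteins that are joined to lipid on the autophagosome membrane. Map1lc3a measured 49.4, 47.5 and 46.2 CPM under PE-MP chow and 76.7, 52.3 and 76.4 CPM under normal chow. The chows did not overlap, and normal chow library 2 lay next to the PE-MP range. The log2 fold change was -0.52 ± 0.17 (SE; adjusted p = 0.198 by edgeR), -0.69 without normal chow library 2 (adjusted p = 0.0333) and -0.44 without normal chow library 1 or 3 (adjusted p = 0.356 and 0.437). With the length and GC trend removed Map1lc3a was at -0.21. Gabarap measured 184, 163 and 168 CPM under PE-MP chow and 235, 189 and 234 CPM under normal chow, again without overlap, with a log2 fold change of -0.35 ± 0.13 (SE; adjusted p = 0.238 by edgeR), or -0.23 with that trend removed.

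Map1lc3b, the LC3 form most used as an autophagosome marker, measured 112, 101 and 113 CPM under PE-MP chow and 154, 102 and 145 CPM under normal chow. Normal chow library 2 lay within the PE-MP range, and the log2 fold change was -0.30 ± 0.17 (SE; adjusted p = 0.407 by edgeR). Gabarapl1, a close relative of Gabarap, varied most of all members. It measured 512, 360 and 90.6 CPM under PE-MP chow and 288, 531 and 581 CPM under normal chow, a ratio of 6.42 between the highest and lowest library. Its level did not sort by chow, and the 95% interval of its log2 fold change of -0.54 reached from -2.05 to 0.97 (edgeR adjusted p = 0.678).

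Sqstm1 encodes p62, the receptor that brings ubiquitinated cargo to the autophagosome and is itself degraded there. It measured 562, 439 and 377 CPM under PE-MP chow and 561, 431 and 490 CPM under normal chow. The ranges overlapped almost fully, with a log2 fold change of -0.10 ± 0.18 (SE; adjusted p = 0.793 by edgeR). Ulk1, the kinase that starts autophagy, was the single autophagy member with a positive fold change. It measured 55.6, 47.6 and 56.8 CPM under PE-MP chow and 53.1, 44.1 and 49.4 CPM under normal chow, overlapping, with a log2 fold change of 0.12 ± 0.13 (SE; adjusted p = 0.638 by edgeR). Becn1, part of the lipid kinase complex that nucleates the membrane, was at -0.03 ± 0.10 (SE) and varied least of all members, by a ratio of 1.09 between the highest and lowest library. Atg5, which takes part in joining LC3 to lipid, was at -0.12 ± 0.14 (SE).

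The transcription factors differed by less than the spread between libraries. Tfeb measured 8.95, 8.08 and 7.41 CPM under PE-MP chow and 9.85, 7.07 and 9.84 CPM under normal chow, with a log2 fold change of -0.13 ± 0.18 (SE; adjusted p = 0.732 by edgeR). Tfe3 measured 24.2, 20.0 and 19.1 CPM under PE-MP chow and 24.6, 21.1 and 20.5 CPM under normal chow, with a log2 fold change of -0.07 ± 0.15 (SE; adjusted p = 0.838 by edgeR). For both genes the ranges overlapped. The factors are controlled mainly by phosphorylation and entry into the nucleus, which transcript levels do not measure.

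The size of the difference between chows depended on normal chow library 2. That library lay nearer to the mean of the PE-MP libraries than to that of the other normal chow libraries for 26 of 40 members (65%), including 15 of 18 hydrolases (83.3%), against 59.1% of all tested genes. By the median over hydrolases of log2 CPM less the mean of all 6 libraries, it stood at -0.09, where PE-MP libraries stood at -0.11, -0.08 and -0.20 and normal chow libraries 1 and 3 at 0.28 and 0.22. Without it, edgeR called 5 members lower (Lipa, Ctsd, Hexa, Ctsb and Map1lc3a) and 0 higher, a share of 12.5% lower against 3.27% of all genes. With any other single library left out, 0 members were called, and 4 to 7 had an unadjusted p under 0.05. Leaving out normal chow library 1 or 3 left 3 of 40 members lower at that p, against 6.24% and 5.42% of all genes. In both fits 1 member was higher, against 8.07% and 6.56%. Without PE-MP library 1, 2 or 3, the lower members numbered 6, 5 and 4, against 6.59%, 5.64% and 6.97%. The higher members numbered 1, 0 and 1, against 6.19%, 5.72% and 6.01%. Without normal chow library 2, at an unadjusted p under 0.05, 18 members were lower, against 13.7% of all genes, and 2 higher, against 14.7% of all genes. The medians without it were -0.36 for hydrolases, -0.27 for membrane proteins and pump subunits, and -0.24 for autophagy genes, and 35 of 40 members had a negative fold change. The part of ribosomal RNA or of the chow itself in this pattern was not tested.

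**Figure D3:**
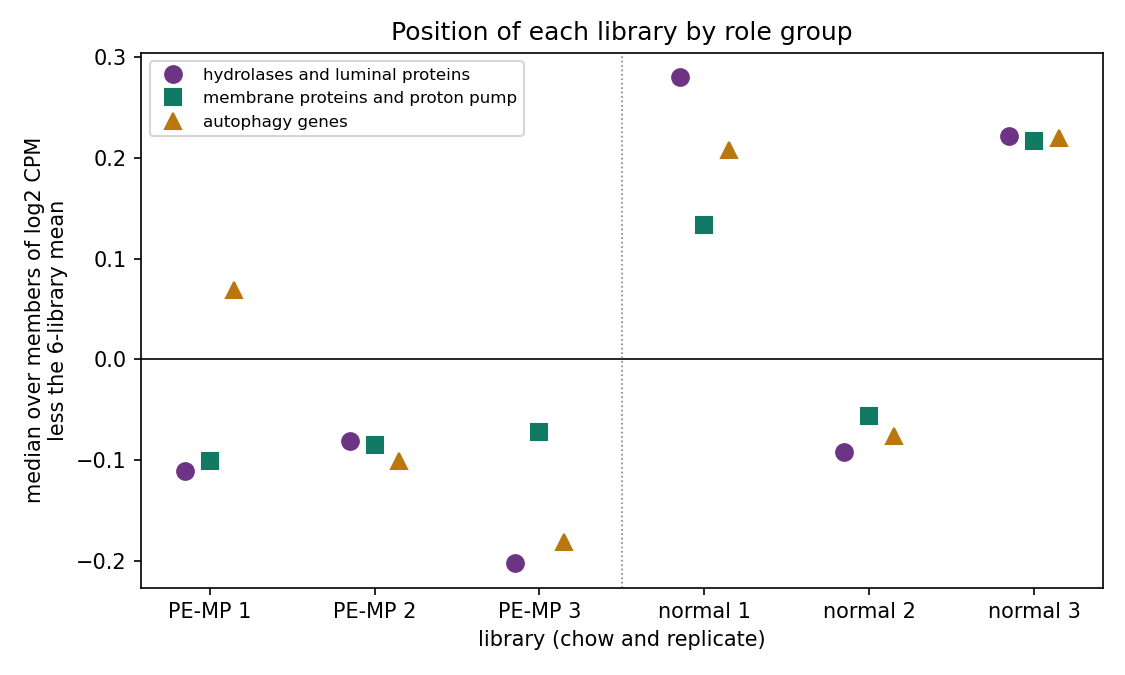
Position of each library (horizontal axis, PE-MP libraries left) by the median over the members of a role group of log2 CPM less the mean of all 6 libraries. Normal chow library 2 sits at -0.09, -0.06 and -0.08 for hydrolases, membrane proteins and autophagy genes, beside the PE-MP libraries and below normal chow libraries 1 and 3.

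**Figure D4:**
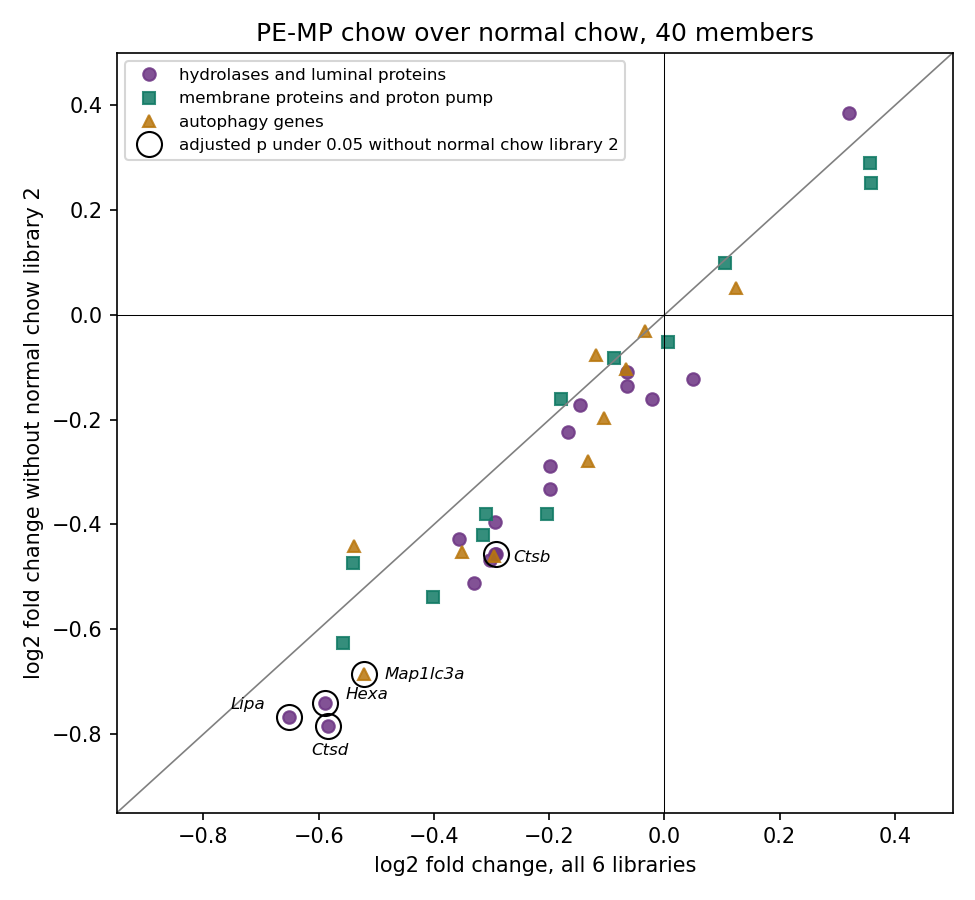
Log2 fold change (PE-MP chow over normal chow) of the 40 members with all 6 libraries (horizontal axis) and without normal chow library 2 (vertical axis), with a grey line where both are equal. Lipa, Ctsd, Hexa, Ctsb and Map1lc3a, ringed, had an edgeR adjusted p under 0.05 without that library.

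Genes of the same compartments outside the 40 were counted from lists by role, and 0 of them passed the adjusted threshold. Among 42 tested further hydrolases, 9 were lower and 1 was higher at an unadjusted p under 0.05, with a median log2 fold change of -0.18. With all 6 libraries, the shares of all genes at that p are 8.82% lower and 9.10% higher, which hold for the lists that follow. The activator of GM2 breakdown Gm2a was at -0.56 ± 0.13, the arylsulfatase Arsa at 0.50 ± 0.12 and the aspartic protease Ctse at -1.65 ± 0.41 (SE). Ctse was scarce, at 0.402, 0.452 and 0.679 CPM under PE-MP chow and 1.58, 0.899 and 2.34 CPM under normal chow (adjusted p = 0.148 by edgeR). The macrophage-rich cysteine protease Ctss was at 0.16 ± 0.15 (SE). Gm2a and Hexa act on the same lipid, GM2 ganglioside, and both had lower levels under PE-MP chow.

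Among 42 further membrane proteins and pump subunits, 5 were higher and 4 lower at that p, with a median of -0.07, counts close to the shares of all genes. The pump-associated Rnasek was at -0.79 ± 0.19, the macrophage lysosomal protein Cd68 at 0.65 ± 0.15 and the metal transporter Slc11a1, found in phagosomes of macrophages, at 0.76 ± 0.21 (SE). Cd68 measured 7.03, 6.75 and 5.90 CPM under PE-MP chow and 4.24, 3.93 and 4.36 CPM under normal chow, without overlap. Among 77 further autophagy genes, 1 was higher and 9 were lower, against 9.10% and 8.82% of all genes, with a median of -0.03. The higher gene was Atg2b, at 1.68 ± 0.53 (SE), with overlap between chows. Lamtor1 and Lamtor4, parts of the Ragulator complex that anchors mTORC1 signalling to the lysosome, were at -0.65 ± 0.15 and -0.55 ± 0.13, and the fusion protein Vamp8 at -0.47 ± 0.13 (SE). Of the same complex, Lamtor2 and Lamtor5 were at -0.38 and -0.33, and Lamtor3 at -0.07. Without normal chow library 2, edgeR called 4 further hydrolases, 0 further membrane genes and 3 further autophagy genes lower and 0 higher. In that setting edgeR called 3.27% of all genes lower. At an unadjusted p under 0.05, 16, 12 and 12 were then lower and 1, 4 and 3 higher. The shares of all genes were then 13.7% lower and 14.7% higher. The medians in that setting were -0.30, -0.17 and -0.11. With all 6 libraries, 1 of 13 genes that target or activate lysosomal enzymes was higher at that p, the sorting adaptor Gga3 (0.99 ± 0.18, SE). The list held 0 lower at that p and had a median of -0.09.

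Scavenger and phagocytic receptors, which bind particles and debris for uptake, had a median of 0.52 over 21 tested genes, 7 of them higher and 0 lower at an unadjusted p under 0.05, against 9.10% and 8.82% of all genes. Stab1, a scavenger receptor of liver endothelium and macrophages, was at 0.83 ± 0.19, the complement receptor Vsig4 at 0.75 ± 0.20 and the mannose receptor Mrc1 at 0.76 ± 0.22 (SE). Several of these genes also stand on the lists of Kupffer or endothelial cell markers below, Vsig4 and Timd4 among them. The values of these lists are therefore not separate results. Without normal chow library 2, the receptors had a median of 0.50 over 22 tested genes. Of these, 8 were higher and 0 lower at an unadjusted p under 0.05, against 14.7% and 13.7% of all genes.

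**Figure D5:**
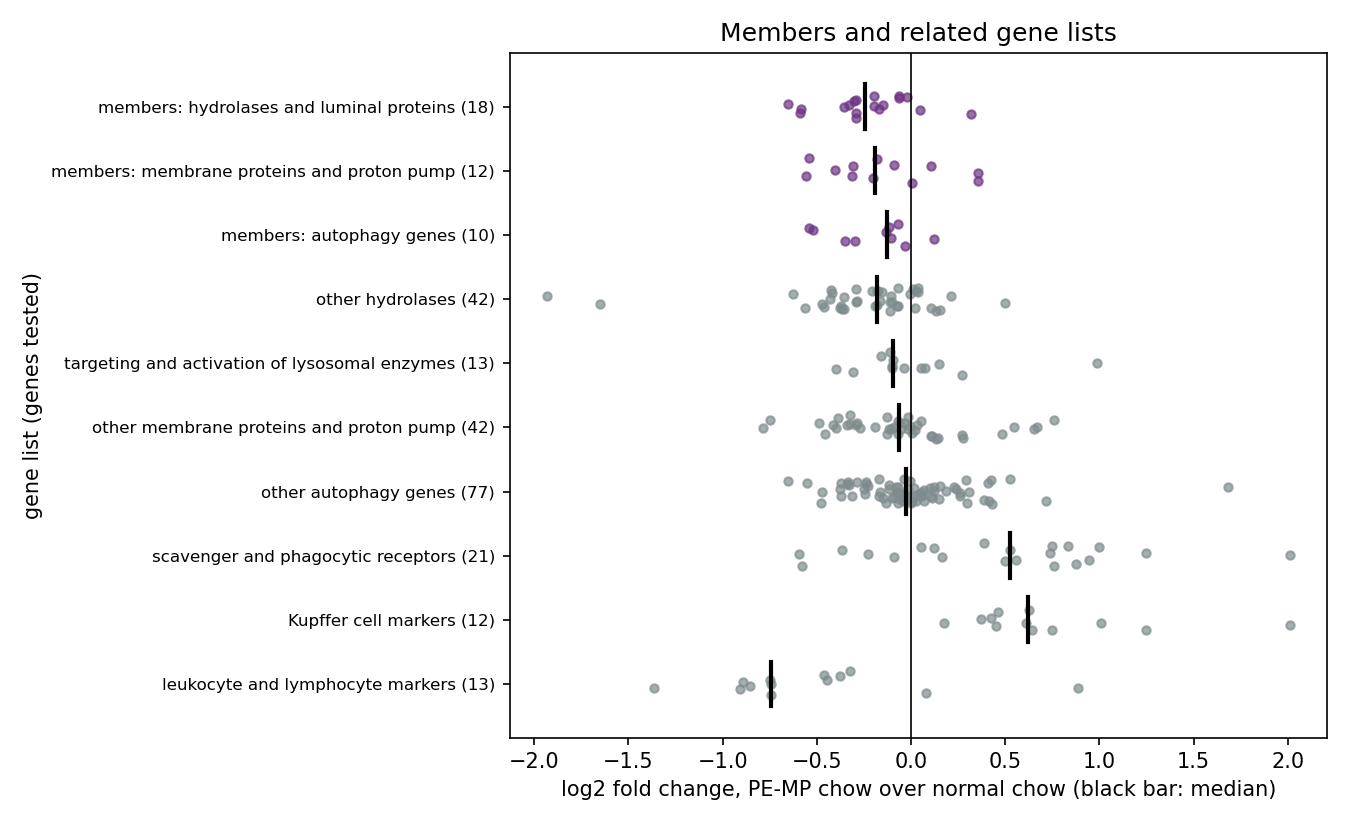
Log2 fold change (PE-MP chow over normal chow, horizontal axis) of each tested gene in the 3 role groups of members (purple) and in related lists (grey), with a black bar at the median and the number of genes in brackets. Medians lie at -0.25, -0.19 and -0.13 for the role groups, 0.52 for scavenger receptors and 0.62 for Kupffer cell markers. The scavenger receptor and Kupffer cell lists share genes.

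Markers of macrophages and other cell types also differed between chows, and their part in the member values was not tested. All 12 Kupffer cell markers were detected and had positive fold changes, 5 at an unadjusted p under 0.05, with a median of 0.62. Their summed level was 328, 276 and 200 CPM under PE-MP chow and 188, 147 and 201 CPM under normal chow, so PE-MP library 3 lay within the normal chow range. Clec4f, a lectin made by Kupffer cells, measured 54.8, 55.0 and 36.4 CPM under PE-MP chow and 35.5, 25.3 and 34.0 CPM under normal chow, a log2 fold change of 0.63 ± 0.21 (SE; adjusted p = 0.210 by edgeR). Adgre1, which encodes F4/80, was at 0.64 ± 0.27 (SE), with overlap between chows.

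All 12 liver endothelial markers had positive fold changes as well, with a median of 0.31, and 2 were higher at an unadjusted p under 0.05. Their sums were 223 to 283 CPM under PE-MP chow and 166 to 196 CPM under normal chow. With all 6 libraries, markers of leukocytes and lymphocytes went the other way, with 11 of 13 negative and a median of -0.74. Their sums were 20.8 to 29.3 CPM under PE-MP chow and 30.3, 52.6 and 25.2 CPM in normal chow libraries 1, 2 and 3. Without normal chow library 2 the medians were 0.44 for Kupffer cell markers, 0.38 for endothelial markers and -0.21 for leukocyte and lymphocyte markers. Of the last, 8 of 13 were then negative. At an unadjusted p under 0.05, 3, 3 and 2 of these lists were then higher and 0, 0 and 2 lower. Past the adjusted threshold were 1, 1 and 0, all upwards, where 5.65% of all genes passed it in either direction. The 12 hepatocyte markers had a median of 0.00, 6 positive and 6 negative. Without normal chow library 2 their median was -0.10, with 8 negative and 3 lower at an unadjusted p under 0.05. In that setting, 14.7% of all genes were higher and 13.7% lower at that p.

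The make-up of the libraries also moved with chow. The mitochondrial mRNAs had a median log2 fold change of -1.02. At an unadjusted p under 0.05, 12 of 13 were lower, against 8.82% of all genes. The 7 tested nuclear RNAs had a median of 1.29. All 7 had positive fold changes, and 2 were higher at that p, against 9.10% of all genes, both with mean levels under 1 CPM. Without normal chow library 2 their median was 1.72, with 6 of 7 higher at that p, against 14.7% of all genes, and 1 past the adjusted threshold. The mitochondrial median was then -1.05, with 12 of 13 lower at that p, against 13.7% of all genes. Of these, 10 were past the adjusted threshold, against 3.27% of all genes called lower. For a further fit, mitochondrial genes, Rn18s-rs5 and all other genes over 1% of a library were left out first. In that fit, 0 members passed the adjusted threshold. At an unadjusted p under 0.05, 9 members were lower, against 8.31% of all genes, and 3 higher, against 9.35%. The part of RNA quality in the member values was not tested.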

How the data were processed

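Total RNA of mouse liver was made into poly(A)-selected libraries with a directional kit, per the labels' protocols. The deposited values are raw read counts per gene, whole numbers that the authors did not normalise. The submitters' processing notes name bcl2fastq and build GRCm39. The sources used here do not give the aligner, counter, annotation or strand setting, so reads shared with overlapping genes, pseudogenes or close paralogs (Atp6v0c, Gabarapl1, Map1lc3b) could be divided among them. The 6 per-library files held the same values as the table of 56674 rows.

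For the comparison of counts, edgeR 4.0.16 (R 4.3.3) was run with TMM scaling, its default filter on low counts, robust dispersion estimates and the quasi-likelihood F test; the filter kept 18043 genes and all 40 members. Two-sided p-values were given Benjamini-Hochberg adjustment over all tested genes, and 0.05 was the threshold. A positive log2 fold change means a higher level under PE-MP chow. CPM values were computed here from the counts and scaled library sizes. Levels per kilobase used exon lengths of GENCODE M21 (build GRCm38), and promoter windows came from RefSeq (GRCm38.p6). The fit was tested on simulated counts. Values in every library are given for the 5 members with the smallest p in each role group and for a set of named members, and from each other list up to 3 genes with the smallest p could be named, with Cd68, Ctss, Adgre1 and Clec4f always. A few further genes of those lists are named beside them. Members and lists were chosen with earlier results of these data known, and the grouping follows the labels. Alternatives were DESeq2 1.42.0, limma-voom (limma 3.58.1), upper-quartile and RLE scaling, other expression filters, each library left out, the replicate number as a block, dominant genes left out, a length and GC trend removed, and an adjusted p of 0.1.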

Additional observations from a re-analysis of the deposited data

How the results depend on the processing

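With 3 libraries per chow, an exact permutation test of 1 gene cannot go below 0.1, so weight rests on the spread shared across genes. The number of members past the adjusted threshold was 0 under all alternatives on 6 libraries other than DESeq2, which called 2, and was 0 to 5 with 1 library left out. The 5 came without normal chow library 2. Genes past the threshold numbered 1, against 3 with RLE factors, 23 with no expression filter, 22 with the stricter filter, 15 with limma-voom, 1186 with DESeq2, 53 at an adjusted p of 0.1, and 1 to 1075 with 1 library left out. Members with an unadjusted p under 0.05 numbered 12, and were 12 or 13 under the other scalings, filters and tools, and 4 to 20 with 1 library left out: 7, 5 and 5 without PE-MP library 1, 2 or 3, and 4, 20 and 4 without normal chow library 1, 2 or 3. The shares of all genes lower and higher at that p were 5.37% to 10.2% and 7.1% to 11.5% under those scalings, filters and tools. With 1 library left out they were 5.42% to 13.7% and 5.72% to 14.7%. The cause of these shifts was not tested.

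The median log2 fold change of the hydrolases was -0.36 to -0.17 with 1 library left out and that of the autophagy genes -0.24 to -0.09. For membrane proteins and pump subunits it was -0.27 to -0.062, the last without normal chow library 3. Fold changes near 0 changed sign. Scarb2 was at -0.0065 with RLE factors and with DESeq2, at -0.11 with the length and GC trend removed, and at -0.052 to 0.050 with 1 library left out. Neu1 was at 0.0078 with upper-quartile factors, 0.0020 with the stricter filter and -0.16 to 0.12 with 1 library left out. Ctsz was at 0.016 with the trend removed. With 1 library left out, Gla ranged over -0.16 to 0.087, Grn -0.12 to 0.25, Laptm5 -0.039 to 0.20, Atp6v1a -0.38 to 0.029, Tfe3 -0.17 to 0.016 and Sqstm1 -0.27 to 0.011.

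With the replicate number as a replicate block, 0 members and 0 genes passed the adjusted threshold. At an unadjusted p under 0.05, 7 members were lower, against 7.45% of all genes, and 1 higher, against 8.33%, 8 in all. The medians were -0.23, -0.17 and -0.12 for hydrolases, membrane proteins and autophagy genes. Libraries with the same number deviated together with correlations of 0.0027, 0.040 and 0.14, so the numbers were not taken to pair the libraries. The trend on length and GC content gave values with no test.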

Other observations

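Further marker lists of liver cell types gave the following values. With all 6 libraries, 9.10% of all genes were higher and 8.82% lower at an unadjusted p under 0.05. Without normal chow library 2 these shares were 14.7% and 13.7%. Of 10 tested markers of monocytes, neutrophils and dendritic cells, 2 were higher and 1 was lower at an unadjusted p under 0.05, with a median log2 fold change of 0.22. S100a9, a calcium-binding protein of neutrophils and monocytes, measured 1.20, 0.988 and 0.846 CPM under PE-MP chow and 0.371, 0.299 and 0.375 CPM under normal chow, without overlap (log2 fold change 1.53 ± 0.27, SE; edgeR adjusted p = 0.124). Of 10 stellate cell markers, 9 had negative fold changes and 2 were lower at that p, with a median of -0.41. The 6 cholangiocyte markers had a median of 0.31, and 0 of them had an unadjusted p under 0.05 by edgeR. Most cholangiocyte markers, and most of the monocyte, neutrophil and dendritic cell markers, had mean levels under 1 CPM in both chows. Without normal chow library 2 the cholangiocyte median was 0.77, with 3 higher at that p and 1 past the adjusted threshold. In that setting, 5.65% of all genes were past that threshold in either direction. The stellate median was then -0.51 with 0 at that p, and that of the 12 monocyte, neutrophil and dendritic cell markers then tested was 1.12, with 3 higher, 1 lower and 1 past the adjusted threshold, upwards.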
